A study of Arabidopsis thaliana with 18 samples.

Results

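The plastid genome of Arabidopsis thaliana encodes a few proteins that belong neither to photosynthesis nor to the ribosome, and 7 of their genes are described: the RNA polymerase subunits rpoA, rpoB, rpoC1 and rpoC2, the intron maturase matK, the protease subunit clpP and the carboxylase subunit accD. They were chosen by name, with earlier results of these data known, and each was read from the 1 probe set annotated to that gene alone. All 7 had such a probe set, and they make up 7 of the 69 plastid genes measured and 7 of the 22746 probe sets tested. RNA came from the aerial parts of 10-day-old seedlings of the Landsberg erecta line. The tested genotype was gcn2, a mutant of GCN2, the protein kinase that phosphorylates a translation initiation factor in the cytosol when amino acids run short. The other genotype was wild type, and the labels name no treatment, so both carried the Landsberg erecta background and nothing else that is stated. Each genotype gave polysomal RNA (the pool of the 6 bottom fractions of a sucrose gradient), non-polysomal RNA (the pool of the 6 top fractions) and total RNA, with 3 replicates of each, which makes 18 Affymetrix ATH1 arrays in 6 groups. Nothing in the labels gives the gcn2 allele, the number of mutant lines or whether replicates came from separate plants or plates. The p-values therefore measure only how far these samples scatter, and that scatter may be technical.

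Plastids keep a small genome of bacterial descent and translate its transcripts on their own bacterial-type ribosomes. The 4 rpo genes encode the core of the plastid's bacterial-type RNA polymerase, which transcribes the photosynthesis genes of green tissue and is directed to promoters by sigma factors imported from the cytosol. The protein of matK, whose reading frame lies within the intron of a lysine tRNA gene, takes part in splicing plastid group II introns. The clpP product is a catalytic subunit of the Clp protease, a barrel of plastid-encoded and nuclear-encoded subunits that degrades proteins in the stroma. The accD product is the beta subunit of the carboxyltransferase in the plastid acetyl-CoA carboxylase, the enzyme that starts fatty acid synthesis, and all its other subunits are encoded in the nucleus.

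The array medians lay between 5.05 and 5.18 on the log2 scale, so every value below is a log2 signal relative to the array-wide level, and the 153 pairs of arrays held 0 pairs with identical values. Plastid transcripts mostly lack the stable poly(A) tails of cytosolic mRNA, the labels name the standard Affymetrix labelling without its primer, and how much plastid RNA entered each labelling reaction was not tested. As a check of the tissue, 6 of the 10 listed markers of green aerial tissue were measured, and all 6, among them RCA and SBPASE of the Calvin cycle, lay above the array median on all 18 arrays. Of the 7 listed root markers 2 were measured: the root-hair gene EXPA7 was below the median on all 18 arrays, at 3.38 to 4.40, and PYK10, a beta-glucosidase abundant in roots, was above it on all 18, at 7.88 to 11.1. The summed signal of the 6 green-tissue markers ran from 14.7 to 14.9 in the polysomal arrays, from 13.9 to 14.1 in the non-polysomal arrays and from 14.7 to 15.2 in the total RNA arrays. That of both root markers ran from 9.88 to 10.4 in the polysomal arrays, from 7.99 to 8.90 in the non-polysomal arrays and from 10.3 to 11.1 in the total RNA arrays. Both sums were thus lowest in non-polysomal RNA. The root sum followed PYK10 (mean loading 1.51), while EXPA7 had -0.24. Of the 6 green-tissue markers 5 had a positive mean loading and STOMAGEN had -1.88. The part of these markers in the results was not tested. In such bulk RNA, fewer cells of a type and less RNA per cell cannot be told apart.

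The transcript of rpoA, which encodes the alpha subunit that assembles the polymerase core, had signals of 10.15, 10.79 and 11.41 in gcn2 polysomal RNA (replicates 1 to 3), against 11.45, 12.43 and 12.30 in gcn2 non-polysomal RNA. In wild type it had 10.43, 11.13 and 11.17 in polysomal RNA, against 11.34, 11.58 and 12.15 in non-polysomal RNA. In total RNA it had 11.52, 11.29 and 11.70 in gcn2, against 11.08, 11.43 and 11.92 in wild type. All polysomal arrays of a genotype lay below all its non-polysomal arrays, whereas the genotypes overlapped in every fraction. Such a separation below held for rpoA and clpP in each genotype, 2 of the 7 genes, and for 18.7% of tested probe sets in gcn2 and 23.5% in wild type.

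The transcript of rpoB, the beta subunit that holds part of the catalytic centre, was dim. It had 3.27, 3.11 and 4.39 in gcn2 polysomal RNA, against 3.50, 3.57 and 4.81 in gcn2 non-polysomal RNA, and 2.98, 3.14 and 3.96 in wild-type polysomal RNA, against 3.30, 3.53 and 3.94 in wild-type non-polysomal RNA. In total RNA it had 3.51, 3.21 and 5.33 in gcn2, against 2.90, 3.78 and 5.86 in wild type. Since the lower quartile of an array was 3.21 to 3.52, much of the rpoB signal was in the range of the dimmest probe sets, and little can be read from its differences.

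For rpoC1, which encodes the beta-prime subunit and contains an intron, the signals were 5.27, 7.15 and 9.46 in gcn2 polysomal RNA, against 6.94, 9.53 and 10.99 in gcn2 non-polysomal RNA. Wild type gave 5.39, 7.55 and 9.00 in polysomal RNA, against 8.11, 8.67 and 10.51 in non-polysomal RNA. In total RNA the signals were 7.66, 7.42 and 9.96 in gcn2, against 6.07, 7.91 and 10.05 in wild type. Replicate 3 was the highest array in all 6 groups, and the replicates of a group spanned at least 2.40 log2 units, so polysomal and non-polysomal arrays overlapped unless they were read by replicate number.

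For rpoC2, the beta-double-prime subunit, the signals were 4.83, 5.86 and 8.68 in gcn2 polysomal RNA, against 5.94, 8.22 and 9.52 in gcn2 non-polysomal RNA. Wild type gave 4.34, 6.52 and 7.97 in polysomal RNA, against 6.06, 6.38 and 8.63 in non-polysomal RNA. In total RNA the signals were 7.33, 6.55 and 8.41 in gcn2, against 5.35, 7.01 and 9.06 in wild type. Only in replicate 2 of wild type was the polysomal array not below the non-polysomal array of its number.

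The matK transcript had 7.78, 8.83 and 11.10 in gcn2 polysomal RNA, against 10.43, 12.16 and 12.50 in gcn2 non-polysomal RNA. In wild type it had 7.96, 10.01 and 11.25 in polysomal RNA, against 10.71, 11.05 and 12.29 in non-polysomal RNA. In total RNA it had 9.77, 8.95 and 11.24 in gcn2, against 8.36, 9.54 and 12.18 in wild type. Each polysomal array was at least 1 log2 unit below the non-polysomal array of its number, yet the highest polysomal replicate exceeded the lowest non-polysomal one in both genotypes.

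The clpP transcript had 8.62, 9.87 and 11.13 in gcn2 polysomal RNA, against 11.60, 12.79 and 13.23 in gcn2 non-polysomal RNA. In wild type it had 8.73, 10.70 and 11.45 in polysomal RNA, against 11.57, 12.44 and 13.21 in non-polysomal RNA. In total RNA it had 10.92, 10.37 and 12.23 in gcn2, against 9.04, 10.93 and 12.44 in wild type. It was the only one of the 7 for which all 6 polysomal arrays lay below all 6 non-polysomal arrays, a separation that 9.78% of the tested probe sets showed in this direction.

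For accD the signals were 4.72, 6.84 and 8.68 in gcn2 polysomal RNA, against 6.64, 9.22 and 10.45 in gcn2 non-polysomal RNA. Wild type gave 4.93, 7.19 and 9.08 in polysomal RNA, against 7.58, 8.41 and 10.18 in non-polysomal RNA. In total RNA the signals were 6.91, 6.32 and 9.22 in gcn2, against 4.96, 7.31 and 9.80 in wild type. It had the widest spread of the 7, up to 4.84 log2 units between replicates of one group.

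**Figure D1:**
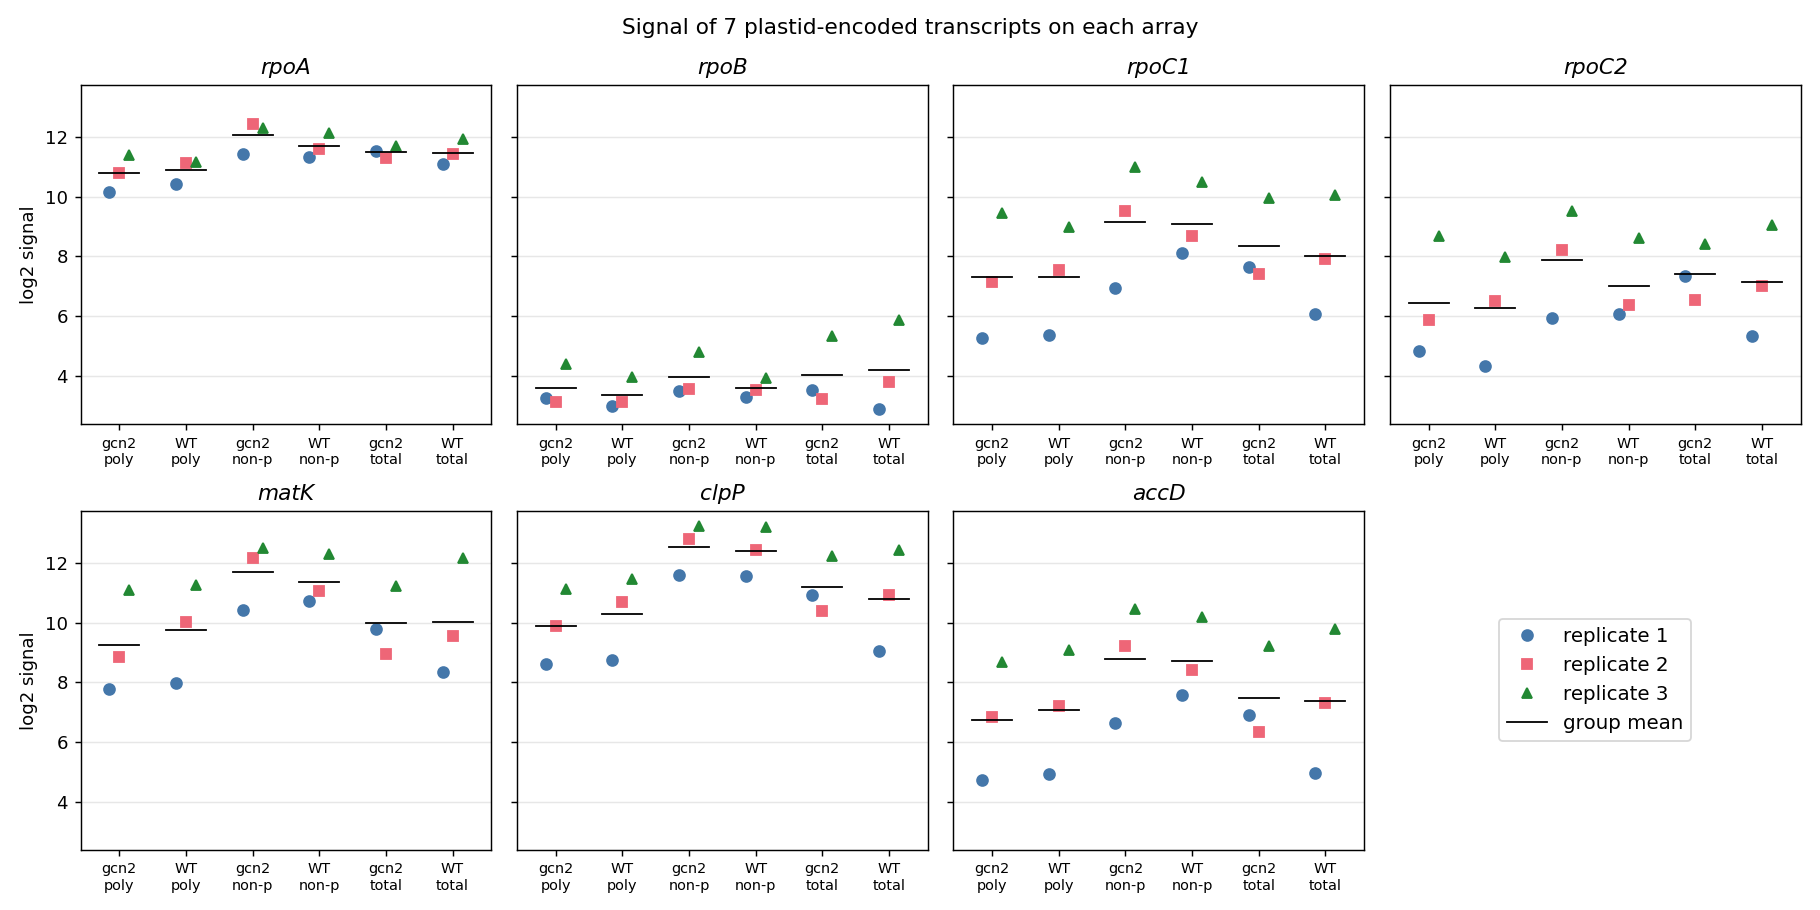
Log2 signal of the 7 transcripts on each of the 18 arrays, by group on the horizontal axis, with gcn2 left of wild type and polysomal (poly) and non-polysomal (non-p) RNA left of total RNA; symbols mark the replicate number and lines the group means. Replicate 3 is the highest array in 41 of the 42 combinations of gene and group, and polysomal means lie below non-polysomal means for all 7 genes in both genotypes.

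For rpoA, rpoC1, matK, clpP and accD both polysomal group means were the lowest, both non-polysomal means were the highest and both total RNA means lay between them. For rpoC1 the means were 7.30 ± 2.10 (gcn2) and 7.31 ± 1.82 (wild type) in polysomal, 9.15 ± 2.05 (gcn2) and 9.10 ± 1.26 (wild type) in non-polysomal, and 8.35 ± 1.40 (gcn2) and 8.01 ± 2.00 (wild type) in total RNA (SD, n = 3 each). Every pair of neighbours in the order of levels differed by less than the SD of either group. For clpP the polysomal means were 9.88 ± 1.25 in gcn2 and 10.3 ± 1.40 in wild type, the non-polysomal means 12.5 ± 0.84 in gcn2 and 12.4 ± 0.82 in wild type, and the total RNA means 11.2 ± 0.95 in gcn2 and 10.8 ± 1.70 in wild type (SD, n = 3 each). Only the step between non-polysomal and total RNA exceeded the SD of a neighbouring group. The genes rpoB and rpoC2 departed from this order: rpoB was highest in total RNA, at 4.02 ± 1.15 in gcn2 and 4.18 ± 1.52 in wild type, and rpoC2 in wild-type non-polysomal RNA (7.02 ± 1.40) was below wild-type total RNA (7.14 ± 1.86; SD, n = 3 each).

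The spread between replicates was itself a feature of these transcripts. The pooled SD within groups was 0.46 for rpoA, 0.92 for rpoB, 1.21 for clpP, 1.46 for matK, 1.68 for rpoC2, 1.80 for rpoC1 and 1.92 for accD, against a median of 0.206 over all tested probe sets. The other 62 plastid genes had a median of 1.58, so that wide spread was shared by the plastid transcripts, whereas the 6 measured green-tissue markers, which are nuclear genes, had 0.170 to 0.256. Replicate 1 was the lowest of its group for 6 or 7 of the 7 genes in each fraction group and for 7 in wild-type total RNA, and replicate 2 was the lowest for all 7 in gcn2 total RNA. The median signal of the other 62 plastid genes also had replicate 3 highest in 6 of the 6 groups, with ranges of 2.33 to 4.27 log2 units within a group. The hybridization spike-ins BioB and BioC had replicate 3 highest in 5 of 6 groups with ranges of 0.23 to 0.78, and the excess of 3′ over 5′ control probe signal in 1 of 6 groups with ranges of 0.09 to 0.81. The part of either measure in the spread of the plastid transcripts was not tested.

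Loading is the polysomal minus the non-polysomal log2 signal of a transcript. Since the same replicate number marks a shared deviation in both fractions, it was read by replicate number within each genotype. Each of these 6 pairs is called a gradient below, but the labels do not say that both pools came from the same gradient. Equal numbers deviated together across genotypes too. Correlations were 0.226 to 0.583 between polysomal RNA of gcn2 and wild type, against 0.321 to 0.588 between the fractions of gcn2. The clpP loadings were -2.98, -2.92 and -2.10 in gcn2 and -2.83, -1.74 and -1.76 in wild type. The matK loadings were -2.65, -3.33 and -1.40 in gcn2 and -2.75, -1.04 and -1.04 in wild type. Both transcripts were below 0 in all 6 gradients, and their low polysomal share was of similar size in replicate 1 of both genotypes. The rpoC1 loadings were -1.67, -2.38 and -1.53 in gcn2 and -2.73, -1.12 and -1.51 in wild type. The accD loadings were -1.93, -2.38 and -1.76 in gcn2 and -2.65, -1.22 and -1.10 in wild type. These also stayed below 0 in all 6 gradients, as did rpoA, at -1.30, -1.64 and -0.89 in gcn2 and -0.92, -0.45 and -0.98 in wild type. The rpoC2 loadings were -1.11, -2.36 and -0.84 in gcn2 and -1.72, 0.14 and -0.66 in wild type. The rpoB loadings were -0.23, -0.46 and -0.42 in gcn2 and -0.32, -0.39 and 0.02 in wild type. For these last genes 5 of 6 gradients were below 0, the exceptions being replicate 2 of wild type for rpoC2 and replicate 3 of wild type for rpoB.

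**Figure D2:**
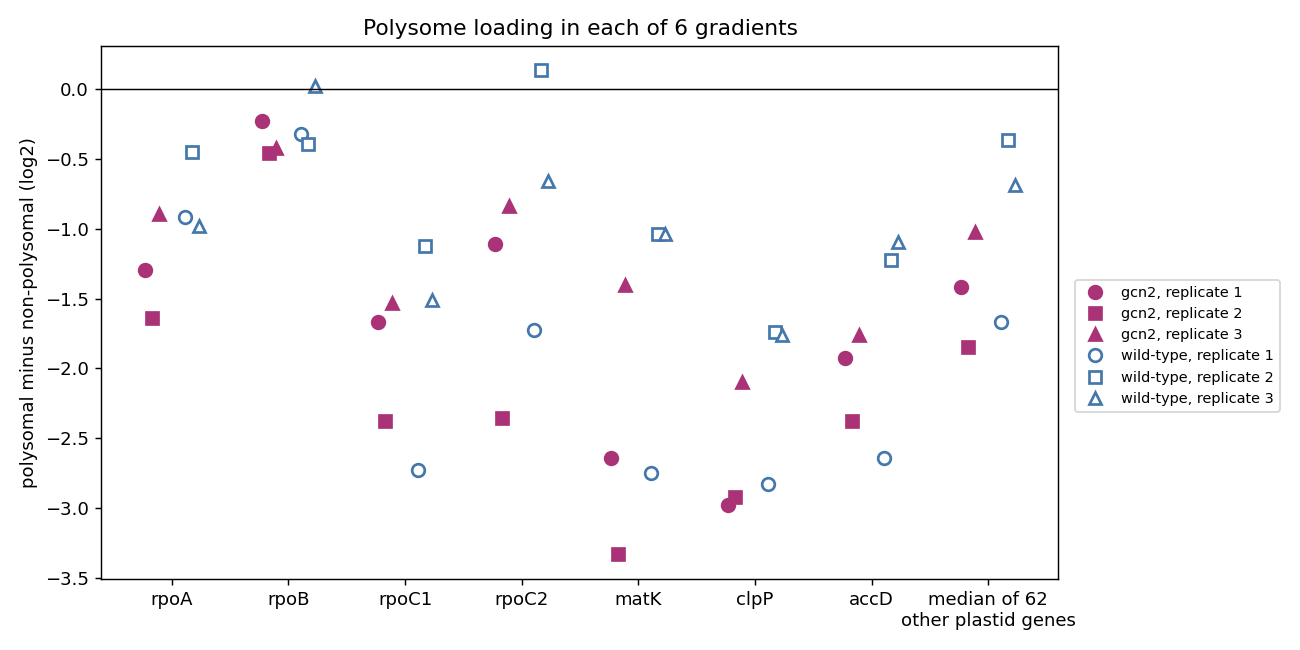
Loading (polysomal minus non-polysomal log2 signal, vertical axis) of the 7 transcripts and the median of the 62 other plastid genes in each gradient. A gradient here is the pair of fraction arrays with the same genotype and replicate number. Filled symbols for gcn2 stand left of open symbols for wild type, and the symbol shape gives the replicate number. The clpP points lie between -2.98 and -1.74, below the plastid median of the same gradient in all 6.

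In the limma model of all 18 arrays, mean loading over both genotypes passed the test for 3 of the 7 genes, all of them lower in polysomal RNA: rpoA, clpP and matK. Over all tested probe sets 20.8% were called lower. The difference was -1.03 ± 0.22 for rpoA (moderated SE, adjusted p = 0.0011), -2.39 ± 0.57 for clpP (adjusted p = 0.0024) and -2.03 ± 0.69 for matK (adjusted p = 0.0240). It was -1.82 ± 0.85 for rpoC1 (adjusted p = 0.0963), -1.84 ± 0.90 for accD (0.114), -1.09 ± 0.79 for rpoC2 (0.291) and -0.30 ± 0.44 for rpoB (0.616). The 12 fraction arrays were also fitted with the replicate number as a block. The same differences then carried SEs of 0.11 to 0.22 and all 7 genes passed. Adjusted p-values ran from 6.3e-10 for clpP to 0.0326 for rpoB, against 24.7% of tested probe sets called lower by that fit. Moderated SEs are drawn toward the spread of all tested probe sets, so they may understate the scatter of plastid genes. In wild type the matK loadings ran from -2.75 to -1.04 between replicates, against a blocked SE of 0.30. The trended and robust prior was not fitted with the block. The matK call without the block was lost when any one of 6 of the 12 fraction arrays was left out, namely gcn2 polysomal replicates 1 and 2, gcn2 non-polysomal replicates 2 and 3, wild-type polysomal replicate 1 and wild-type non-polysomal replicate 3, with adjusted p up to 0.0751, and also with a trended and robust prior (0.0689). The 3′ excess of the control probes moved with the fractions as well. It was 2.99 ± 0.28 in polysomal and 3.72 ± 0.42 in non-polysomal RNA of gcn2, and 2.91 ± 0.16 in polysomal and 3.24 ± 0.31 in non-polysomal RNA of wild type (log2 units, SD, n = 3 each), and its part in the loading was not tested.

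Within gcn2 alone, rpoA fell by 1.28 ± 0.32 (adjusted p = 0.0050) and clpP fell by 2.67 ± 0.81 (adjusted p = 0.0180), so that 2 of 7 genes were called, against 13.4% of tested probe sets called lower. The matK difference was -2.46 ± 0.98 and did not pass (adjusted p = 0.0688), but it passed with only the compared arrays (0.0359), array weights (0.0447), the dim filter (0.0440) or spike-in centring (0.0125). In the blocked fit 6 of the 7 were called lower in gcn2, against 17.2% of tested probe sets, and rpoB was not (-0.37 ± 0.16, adjusted p = 0.0754). The clpP call without the block was lost without gcn2 polysomal replicate 1 (adjusted p = 0.102) and without gcn2 non-polysomal replicate 2 or 3, and with the trended and robust prior (0.0603), whereas the rpoA call held without each gcn2 fraction array in turn.

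Within wild type alone, limma called 0 of 7 genes, with 2 of them at an unadjusted p below 0.05, and 13.3% of tested probe sets were called lower. The nearest to the threshold were clpP, at -2.11 ± 0.81 (adjusted p = 0.0592), and rpoA, at -0.78 ± 0.32 (adjusted p = 0.0746). In the blocked fit 5 of 7 were called lower, against 17.9% of tested probe sets: rpoC1 (-1.79 ± 0.28), matK (-1.61 ± 0.30), clpP (-2.11 ± 0.20), accD (-1.66 ± 0.25) and rpoA (-0.78 ± 0.16). The rpoC2 difference was -0.75 ± 0.29 (adjusted p = 0.0509) and that of rpoB was -0.23 ± 0.16 (adjusted p = 0.268) in that fit. The direction of the small values rests on the array-wide scale: centred on the BioB and BioC spike-ins instead, which moves the median loading of all probe sets to 0.83 from -0.06, clpP, matK, rpoC1 and accD stayed negative and rpoA in wild type, rpoC2 in wild type and rpoB in both turned positive. The rpoA calls were lost with that centring, at adjusted p = 0.196 in gcn2 and 0.546 in mean loading, and rpoB was called higher in mean loading (0.59, adjusted p = 0.0365).

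**Figure D3:**
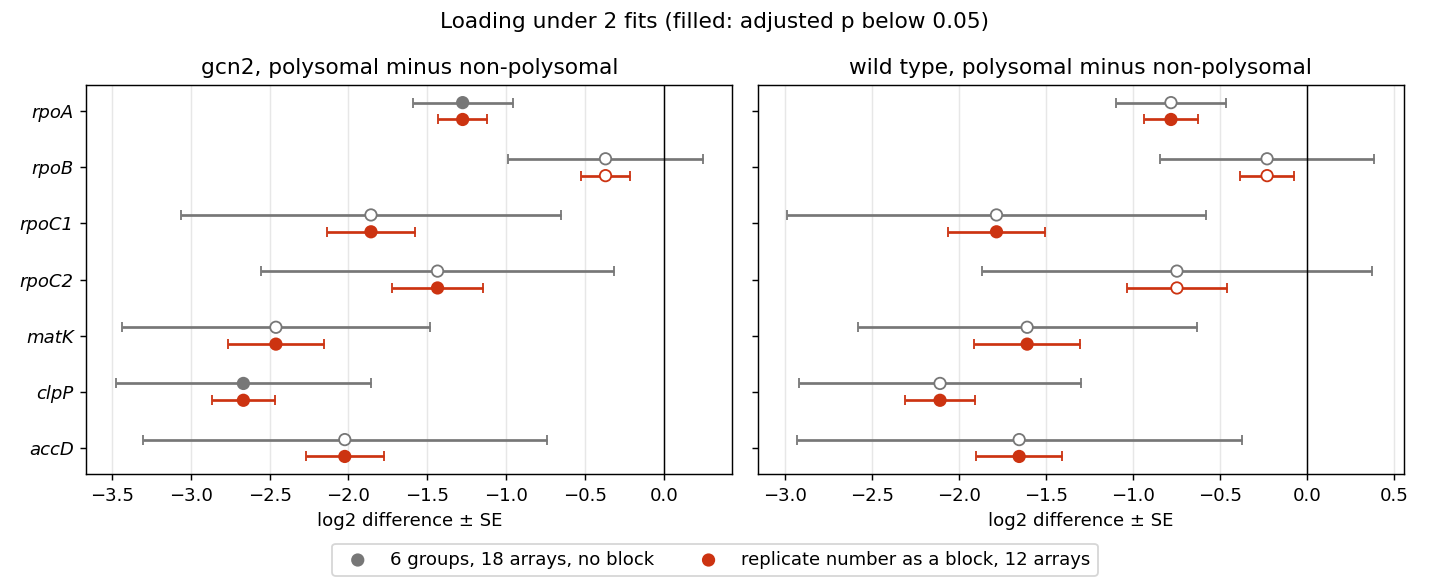
Loading of the 7 transcripts (horizontal axis, log2 difference ± SE) in gcn2 (left) and wild type (right) from the model of 18 arrays without a block (grey) and from the fit of the 12 fraction arrays with the replicate number as a block (red); filled points passed an adjusted p of 0.05. The differences are the same in both fits, and the block shortens the error bars, from 1.20 to 0.28 for rpoC1.

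These loadings were set against the other plastid transcripts as a description, since all were read from the same arrays. The median of the mean loading was -1.82 over the 7 genes, -1.21 over the 62 other plastid genes and -0.06 over all tested probe sets. By function, the median was -1.22 for 37 photosynthesis genes, -0.90 for 10 subunits of the NDH complex and -1.20 for 15 ribosomal proteins. Ranked from the lowest mean loading among the 69, clpP stood at 6, matK at 17, accD at 19, rpoC1 at 20, rpoC2 at 41, rpoA at 42 and rpoB at 57. Among the other 62, 17 (27.4%) were called lower and 1 higher without the block, against 20.8% of tested probe sets called lower, and 47 (75.8%) lower and 4 higher with it, against 24.7%. On the deposited scale 55 of the 62 had a negative mean loading. Centring on the spike-ins moves every mean loading up by 0.89, which puts the median of the 62 at -0.32 with 37 of them negative.

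Relative to the median of the other plastid genes in the same gradient, clpP was lower by 1.07 to 1.56 log2 units in all 6 gradients, with a mean of -1.22 ± 0.20 (SD, n = 6). These 6 gradients join both genotypes, and equal replicate numbers deviated together across genotypes, so they are not independent replicates of a single condition. The relative loading was also below 0 in all 6 gradients for matK (-0.87 ± 0.47), accD (-0.67 ± 0.22) and rpoC1 (-0.65 ± 0.29; SD, n = 6 each). It was 0.14 ± 0.35 for rpoA and 0.08 ± 0.35 for rpoC2, each below 0 in 2 gradients, and 0.87 ± 0.55 for rpoB, below 0 in 1 gradient (SD, n = 6 each). Of the polymerase subunits, rpoC1 was below the plastid median in each gradient, rpoA and rpoC2 were on both sides of it, and rpoB was mostly above it. These are values of single probe sets, and little can be read from the dim rpoB. Whether the subunit transcripts differ in loading was not tested. The plastid median itself lay at -1.42, -1.85 and -1.02 in gcn2 and at -1.67, -0.36 and -0.68 in wild type, and the 2 wild-type gradients nearest to 0 are those in which matK, clpP and accD had their weakest loadings.

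**Figure D4:**
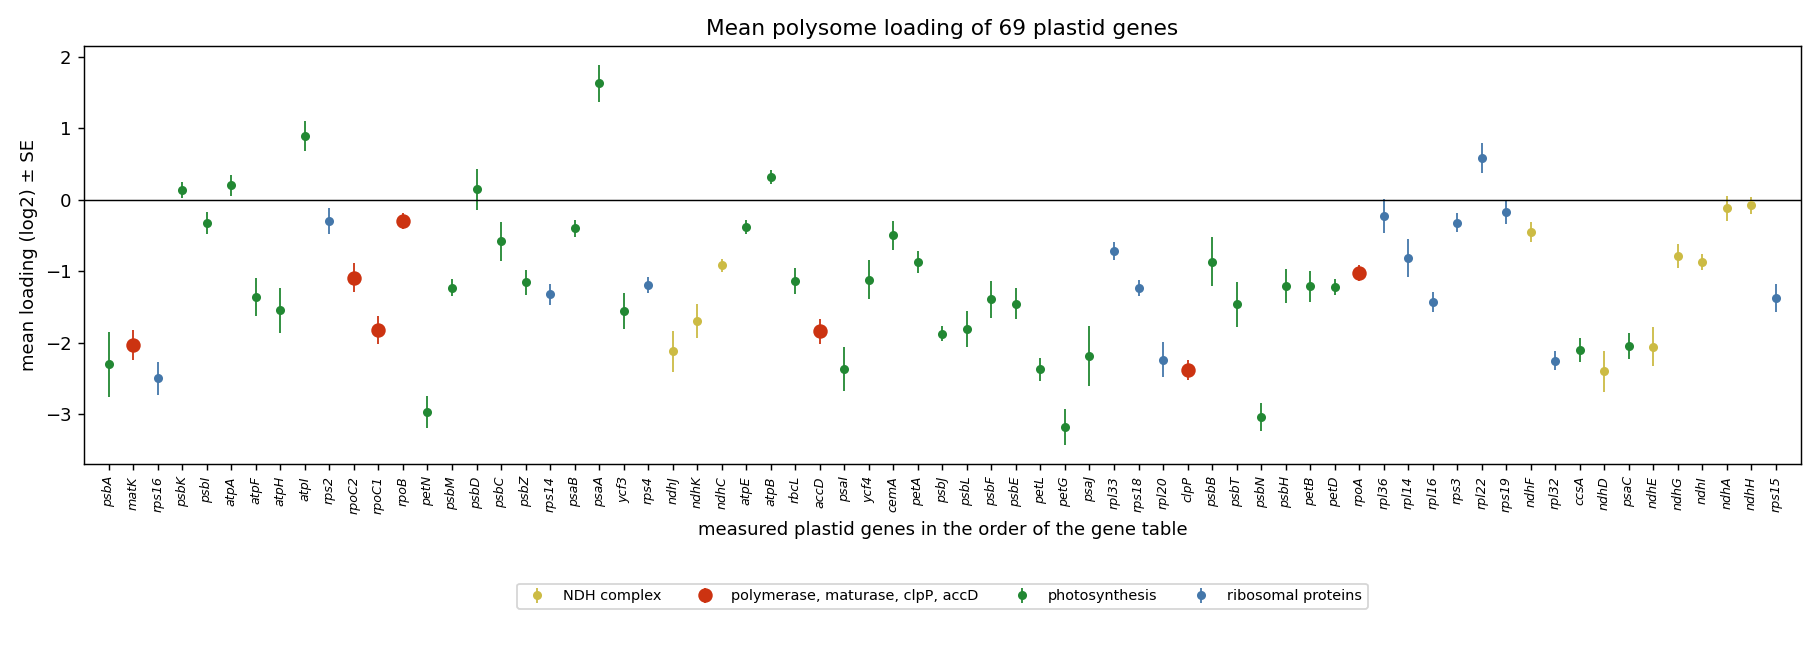
Mean loading over both genotypes (vertical axis, log2 difference ± SE from the blocked fit of the 12 fraction arrays) of the 69 measured plastid genes in their order in the plastid gene table, coloured by function, with the 7 genes as large points. The rpoC2, rpoC1 and rpoB genes adjoin, and the others of the 7 stand at separate places in the order. The 7 values lie between -2.39 for clpP and -0.30 for rpoB, within the range of the other plastid genes.

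The nearest measured gene on each side in the plastid gene order was read as well, without regard to strand or to shared transcripts. The rpoB, rpoC1 and rpoC2 genes adjoin each other and had mean loadings of -0.30, -1.82 and -1.09. On their outer sides, petN, a small subunit of the cytochrome b6f complex, had -2.97 ± 0.22 beside rpoB, and rps2, a ribosomal protein, had -0.29 ± 0.18 beside rpoC2 (SE from the blocked fit). Beside rpoA, petD of the cytochrome b6f complex had -1.22 ± 0.11, against -1.03 for rpoA, and rpl36 had -0.22 ± 0.24. Beside matK, psbA of photosystem II had -2.30 ± 0.45 and rps16 had -2.50 ± 0.23, against -2.03 for matK itself. On the sides of clpP, rpl20 had -2.24 ± 0.24 and psbB of photosystem II had -0.87 ± 0.34, against -2.39 for clpP. On the sides of accD, rbcL, the large subunit of Rubisco, had -1.14 ± 0.18 and psaI of photosystem I had -2.36 ± 0.31, against -1.84 for accD. Centred on the spike-ins, rps2, rpl36 and psbB had positive values.

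The transcripts with the most similar pattern over the 18 arrays were sought among 1550 probe sets of genes with a symbol, by the root mean square difference between profiles centred on their own means. For rpoC1 the nearest was accD (0.296 log2 units) and then atpF (0.483), and for accD they were rpoC1 (0.296) and rbcL (0.372). For matK the nearest were clpP (0.390) and ccsA (0.394), and for clpP they were matK (0.390) and petL (0.440). The 7 genes thus held 2 pairs of mutual nearest neighbours that do not adjoin in the plastid gene order. For rpoA the nearest were rps4 (0.221) and ndhI (0.270), for rpoC2 psbH (0.407) and ycf4 (0.456), and for rpoB petD (0.570) and psaB (0.571). All 10 nearest profiles were plastid genes for rpoC1, rpoC2, matK, clpP and accD, against 5 of 10 for rpoA and 4 of 10 for rpoB, whose own variation was the smallest at 0.576 and 0.801 log2 units.

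Against total RNA, polysomal RNA had a lower mean signal of all 7 transcripts over both genotypes, and 1 of the 7 passed in limma, against 16.0% of tested probe sets called lower. This was rpoA, which fell by 0.64 ± 0.22 (adjusted p = 0.0370), a call lost when any of 7 of the 12 arrays compared was left out: gcn2 polysomal replicates 1 and 2, wild-type polysomal replicate 1, gcn2 total replicates 1 and 3 and wild-type total replicates 2 and 3. The other 6 differences lay between -0.92 for rpoC2 and -0.51 for accD. When all 18 arrays were blocked by replicate number, 5 of 7 passed, rpoA, rpoB, rpoC1, rpoC2 and clpP, against 17.7% called lower. Numbers 1 and 2 did not pair gcn2 total RNA with the fractions, however. Non-polysomal RNA against total RNA gave 1 call of 7, higher, against 28.2% of tested probe sets called higher: clpP rose by 1.49 ± 0.57 (adjusted p = 0.0369). That call was lost without any of 8 of the 12 arrays compared, those being replicates 2 and 3 of both non-polysomal groups and replicates 1 and 2 of both total RNA groups, with adjusted p up to 0.118. It was also lost with the trended prior (0.0887) or spike-in centring (0.283). With that centring rpoA, rpoB and rpoC2 were called lower, as were 20407 of the 22746 tested probe sets. The block on 18 arrays called 5 of 7 higher, rpoA, rpoC1, matK, clpP and accD, against 30.5% of tested probe sets. The difference was 1.52 ± 0.69 for matK (adjusted p = 0.0730), 1.33 ± 0.90 for accD, 0.95 ± 0.85 for rpoC1, 0.39 ± 0.22 for rpoA, 0.17 ± 0.79 for rpoC2 and -0.33 ± 0.44 for rpoB. These comparisons share the total RNA arrays. The 3′ excess of the control probes was lower in total RNA than in either fraction. It was 2.22 ± 0.05 in gcn2 and 2.28 ± 0.12 in wild type (log2 units, SD, n = 3 each), and its part in these comparisons was not tested.

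Between the genotypes, limma called 0 of 7 genes in total RNA, in polysomal RNA, in non-polysomal RNA and in the difference in loading, and 0 of 7 had an unadjusted p below 0.05 in any of these 4 comparisons. Over all tested probe sets 0.0352% were called in total RNA, 0.022% in polysomal RNA, 0.0791% in non-polysomal RNA and 0.0044% in the difference in loading. The largest differences between gcn2 and wild type were 0.37 ± 0.81 for clpP in total RNA, -0.50 ± 0.98 for matK in polysomal RNA and 0.87 ± 1.12 for rpoC2 in non-polysomal RNA. All 7 genes had a higher mean in gcn2 non-polysomal RNA than in wild type, by 0.05 to 0.87, and all 7 had a more negative loading in gcn2, by 0.07 for rpoC1 to 0.85 for matK. By replicate number, loading was more negative in gcn2 for 2 of the 7 genes in number 1, for 7 in number 2 and for 6 in number 3, with median differences of 0.11, -1.19 and -0.34. The matK difference in loading ran from -1.78 to -0.10 when replicates were left out. The other plastid genes had the same sign in 42 of 62 for non-polysomal RNA and in 58 of 62 for loading. With 3 arrays a group and SEs of 0.45 to 1.81 on the difference in loading of the 7 genes, differences of these sizes were not detectable. In the blocked fit of the fraction arrays the SEs of the difference in loading were 0.22 to 0.43 and still 0 of 7 passed, with rpoA nearest (-0.49 ± 0.22, adjusted p = 0.541), as did 0 of 7 in polysomal and in non-polysomal RNA. Over all tested probe sets this fit called 0.0132% for the difference in loading, 0.558% in polysomal and 1.89% in non-polysomal RNA. That fit had 1 gene at an unadjusted p below 0.05 for loading (rpoA), 1 in polysomal RNA (clpP) and 3 in non-polysomal RNA (rpoA, rpoB and rpoC2). The rpoC2 difference in non-polysomal RNA passed in one fit only, the blocked one without replicate 1 (1.36, adjusted p = 0.0249).

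The nuclear partners of these proteins are translated in the cytosol, and most of those with a probe set of their own had a positive loading. Of 14 listed nuclear genes of the plastid Clp system 5 were measured, of which 4 rose and 1 fell in mean loading, with a median of 1.58. CLPP4, a nuclear-encoded proteolytic subunit, was higher in polysomal RNA by 2.19 ± 0.22 in gcn2 and by 1.99 ± 0.22 in wild type, and by 2.09 ± 0.15 over both (adjusted p = 5.5e-09), against -2.39 ± 0.57 for the plastid-encoded clpP. The other measured loci of that list were AT1G09130, AT4G25370 and AT4G12060, which rose by 1.71, 1.58 and 1.15, and AT1G68660, which fell by 0.52 ± 0.11 (adjusted p = 8.8e-04) and turned positive with spike-in centring (0.37). Of 7 listed nuclear genes of the acetyl-CoA carboxylase 3 were measured, namely BADC3 (AT3G15690), BADC2 (AT1G52670) and BADC1 (AT3G56130). The first 2 rose, by 1.62 ± 0.11 and 1.17 ± 0.11, while BADC1 had 0.23 ± 0.09 (adjusted p = 0.0510). The other listed loci had no probe set annotated to them alone, so nothing can be said of the loading of those partners of accD. Over all tested probe sets 20.5% were called higher and 20.8% lower in mean loading on the deposited scale, and 86.2% higher and 1.45% lower with spike-in centring.

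Of 9 listed nuclear splicing factors of plastid introns, the process matK serves, 3 were measured. CFM3A rose by 0.88 ± 0.17 (adjusted p = 3.6e-04) and CAF1 by 0.67 ± 0.11 (adjusted p = 8.7e-05), both of them RNA-binding proteins of the CRM family, and OTP70 had -0.16 ± 0.12 (adjusted p = 0.328), but was called higher with spike-in centring (0.74, adjusted p = 0.0014). Of the 3 listed phage-type polymerases, the nuclear-encoded enzymes that also transcribe organelle genes, AT5G15700 alone was measured. It fell by 0.34 ± 0.13 (adjusted p = 0.0436), a call that was lost without any of 7 of the 12 fraction arrays, with adjusted p up to 0.139, and with quantile normalization (0.144), and with spike-in centring the locus was called higher instead (0.55, adjusted p = 0.0146). Those 7 were gcn2 polysomal replicates 1 and 2, gcn2 non-polysomal replicate 3, wild-type polysomal replicates 1 and 2 and wild-type non-polysomal replicates 2 and 3. Of the 6 sigma factors and 13 polymerase-associated proteins listed, 0 had a probe set annotated to them alone and none was analysed here.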

How the data were processed

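The table analysed holds 1 log2 expression value for each probe set and array, as deposited by the authors. The submitters' processing notes list RMA, affy and MAS5 without saying what each did, so how background was corrected and probes were summarized is unknown. Of 22810 probe sets 64 controls were left out and 22746 tested, without a filter. Genes were named through the platform annotation (13513 probe sets with 1 gene, 503 with several, 8730 not listed) and a RefSeq gene table of TAIR10.1, used for names and gene order only. A group-means model of 18 arrays (12 residual degrees of freedom) was fitted in limma 3.58.1 under R 4.3.3, with Benjamini-Hochberg adjustment over all tested probe sets at 0.05, and the method was tested on simulated data. Errors of differences are moderated SEs.

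Arrays of equal replicate number deviated together from their group means in 6 of 6 pairs of fraction groups (correlations 0.184 to 0.588, the numbers coming from the sample titles), and wild-type total RNA did so with 3 of 4 fraction groups, but gcn2 total RNA with 0 of 4. A pair of groups counted only if all its replicate numbers did so. For gcn2 total RNA the correlations were -0.168 to -0.0036 in numbers 1 and 2 and 0.189 to 0.346 in number 3. The blocked fit used beside the results is therefore that of the 12 fraction arrays (6 residual degrees of freedom).

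All 7 genes are named. Up to 4 loci per list by the moderated statistic, the nearest measured plastid gene on each side and the 2 most similar profiles were named by rule, and AT1G68660, the 5th of its list, was added after its value was seen. The genes and lists were chosen with earlier results of these data known. Neither GCN2 nor the erecta gene was analysed. Alternatives were the replicate block on 18 or 12 arrays, only the compared arrays, a trended and robust prior, array weights, quantile normalization, centring on spike-ins, a filter on dim probe sets and leaving out each replicate.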

Additional observations from a re-analysis of the deposited data

How the results depend on the processing

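With the replicate number as a block, 6 of the 7 genes were called in gcn2 loading (18 or 12 arrays), 5 in wild-type loading (both) and 6 or 7 in mean loading, and on 18 arrays 5 were called for polysomal and 5 for non-polysomal against total RNA. Over the 22746 tested probe sets the block on 18 arrays called 3470 lower in gcn2, 3586 in wild-type and 5227 in mean loading. The block changed no call between genotypes. A trended and robust prior left 1 call in gcn2 loading and 0 in non-polysomal against total RNA. It called 3071 tested probe sets lower in the first and 6706 higher in the second. In wild-type loading, only the compared arrays gave 2 calls, and array weights, quantile normalization, spike-in centring and the dim filter 1 each. These fits called 2965, 4228, 3031, 176 and 2023 tested probe sets lower, in that order, the last of 11373 left by the filter. In non-polysomal against total RNA, only the compared arrays gave 2 and array weights 5, all higher, against 5837 and 7037 tested probe sets called higher. Spike-in centring gave 3 there, all lower, against 20407 tested probe sets called lower. In polysomal against total RNA it also gave 3 lower, against 3258. Leaving out replicates, calls ranged from 1 to 6 in gcn2 loading, 0 to 6 in wild-type loading, 2 to 7 in mean loading, 0 to 1 in non-polysomal RNA between genotypes, 0 to 1 in polysomal and 0 to 3 in non-polysomal against total RNA. These ranges pool single arrays left out without the block and, except against total RNA, whole replicate numbers left out with it. The blocked fits gave the upper ends where they were run. Tested probe sets called lower ran from 2452 to 3381 in gcn2, 2248 to 3307 in wild-type and 4125 to 4929 in mean loading. They ran from 3184 to 3882 in polysomal against total RNA. In non-polysomal RNA 12 to 467 were called, and 5697 to 6724 were called higher in non-polysomal against total RNA.

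Spike-in centring reversed loading of rpoB (0.48 in gcn2, 0.71 in wild type, 0.59 in the mean), of rpoA (0.15) and rpoC2 (0.19) in wild type, and mean loading of AT5G15700 (0.55), AT1G68660 (0.37), OTP70 (0.74), rpl36 (0.67), rps2 (0.60) and psbB (0.022); of the mean loadings, rpoB, AT5G15700 and OTP70 were then called higher. It also reversed non-polysomal against total RNA for rpoA (-0.73), rpoC1 (-0.17) and rpoC2 (-0.94). Array weights reversed matK (0.19) and accD (0.52) in polysomal and rpoB (0.30) in non-polysomal against total RNA. With replicates left out, the sign changed for rpoB in gcn2 loading (-0.77 to 0.055), rpoC2 in wild-type loading (-1.60 to 0.22), rpl36 (-0.89 to 0.35) and rps2 (-0.85 to 0.19) in mean loading, clpP in total RNA (-0.51 to 1.19) and matK in polysomal RNA (-1.43 to 0.25). It also changed for matK (-0.98 to 0.022) and accD (-1.11 to 0.10) in polysomal and for rpoB (-0.65 to 0.093) and rpoC2 (-0.28 to 0.66) in non-polysomal against total RNA. The cause was not tested in any of these. Signal limits rpoB, which the filter on dim probe sets removed, leaving 6 of the 7 genes. Leaving out whole replicate numbers with the block was chosen after seeing the data.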
